A study of Mus with 17 samples.

Results

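The integrated stress response is a signalling route by which a cell answers shortage of amino acids, unfolded protein in the endoplasmic reticulum, viral RNA or lack of haem. Kinases that sense these states phosphorylate the translation factor eIF2, general protein synthesis slows, and the message of the transcription factor ATF4 is translated better than before. ATF4, with its induced partner CHOP (gene Ddit3), then raises the RNA of genes for amino acid supply, redox balance, feedback and cell death. In liver the route is known from fasting, diets short of amino acids and fatty liver disease. The transcripts described here are those of 10 genes of the ATF4 and CHOP pathway. These genes and the 11 other lists below were chosen by name, with earlier results of these data known. The 10 are the transcription factors Atf4, Atf5, Atf3 and Ddit3, the feedback genes Ppp1r15a and Trib3, and the effectors Chac1, Asns, Ddit4 and Sesn2. All 10 were found among the 24937 genes with values, and all 10 were among the 13204 genes abundant enough to be tested.

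The 17 livers came from male C57BL6/JBomTac mice, 1 bulk RNA sequencing library each. In the western diet group 8 mice ate a western-type chow from SDS and drank water with fructose at 42 g/L over 52 weeks, which the labels describe as a model of advanced steatohepatitis. In the chow group 9 mice of the same age ate Altromin standard chow and drank pure water. Both groups went without food in the night before the livers were taken. The age of the mice is not given beyond the length of feeding, and the labels name no allele or transgene in either group.

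Libraries held 3604212 to 9071908.5 counts, and values below are in CPM, the counts scaled by library total and TMM factor. A listed 0 would allow up to 3 counts, or 0.331 to 0.832 CPM depending on the library, by counting error alone. The 10 hepatocyte markers, albumin (Alb) among them, were above 0 in every liver and summed to 13035 to 21093 CPM on western diet and 16946 to 23257 CPM on chow. Macrophage markers summed to 1063 to 1733 CPM on western diet and 443 to 690 CPM on chow, and markers of stellate cells and fibroblasts to 796 to 1452 and 550.0 to 717 CPM. Western diet replicate 5 and chow replicate 2 stood apart by transcripts of exocrine pancreas, whose 19 markers summed to 6257 and 20491 CPM there; the remaining livers on western diet held 194 to 407 CPM and those on chow 185 to 730 CPM. For the genes named, calls that changed without these 2 livers are given beside the result.

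Western diet livers did not show a common rise of the 10 genes. Of the 10, 5 rose (Atf3, Chac1, Ddit4, Ddit3 and Trib3), 2 fell (Asns and Ppp1r15a) and 3 did not pass the test (Atf4, Atf5 and Sesn2), at an adjusted p under 0.05 in edgeR's quasi-likelihood test with Benjamini-Hochberg adjustment over all genes tested. Among all 13204 genes 24.8% rose and 23.6% fell, 48.4% in either direction, and the median log2 difference was 0.37 for the 10 and −0.0091 for all genes. At 2-fold or more, Atf3, Chac1 and Ddit4 rose and Asns fell, where 8.96% of all genes rose and 1.14% fell by as much. In 1 of the 10, Atf3, all western diet livers lay above all chow livers, which 6.98% of tested genes did. In none did all lie below, which 5.05% of tested genes did. The differences ran from 6.15-fold higher (Atf3) to 5.94-fold lower (Asns). In whole liver, more cells of a type and more RNA per cell cannot be told apart, and the part of the higher macrophage and stellate marker sums in these differences was not tested. Scaling by library size alone put the median of all genes at 0.12 and gave 4485 rises and 1615 falls, against 3271 and 3122 with TMM factors. All 10 log2 differences kept their sign with that scaling.

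**Figure D1:**
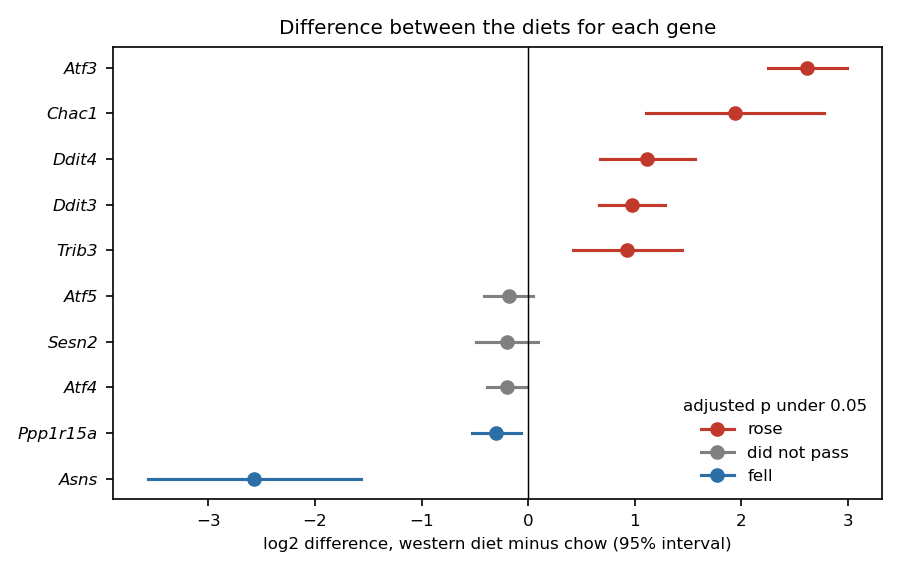
Log2 difference between the diets (western diet minus chow, x axis) of each of the 10 genes, with its 95% interval from the edgeR fit; colours mark the adjusted p. Atf3, Chac1, Ddit4, Ddit3 and Trib3 lie right of 0, Asns at −2.57 and Ppp1r15a at −0.30 lie left of it, and Atf4, Atf5 and Sesn2 did not pass.

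Transcription factors came apart. Atf3, a stress-induced factor of the ATF/CREB family that is also an immediate early gene, had 9.67, 19.5 and 24.8 CPM on western diet (lowest, median and highest of 8 livers) and 2.185, 3.02 and 4.75 CPM on chow (of 9 livers). All 8 western diet livers lay above all 9 chow livers, a separation found in 6.98% of tested genes, and replicate 3 was the lowest of the 8. The means were 18.9 ± 4.65 CPM on western diet and 3.09 ± 0.844 CPM on chow (SD, n = 8 and 9), a log2 difference of 2.62 ± 0.18 (SE, adjusted p = 1.83e-09), which placed the gene 56th from the top of the 13204. The chow level rests on 12 to 27.5 counts a library.

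Ddit3, which encodes CHOP, a factor that promotes death of cells under lasting stress, had 14.2, 19.96 and 35.4 CPM on western diet and 9.57, 10.5 and 14.3 CPM on chow. Of the 8 western diet livers 7 lay above every chow liver, and replicate 7 lay just under the highest chow liver, replicate 3. Its mean was 22.3 ± 6.6 CPM on western diet and 11.4 ± 1.61 CPM on chow, a 1.96-fold rise (log2 0.97 ± 0.15, adjusted p = 2.24e-05).

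Atf4 RNA was not higher on western diet. The gene had 89.6, 127 and 162 CPM on western diet and 133, 144 and 157 CPM on chow, so that 6 of 8 western diet livers lay under every chow liver while replicate 3 lay above them all. The log2 difference of −0.20 had a 95% interval of −0.39 to −0.013 and did not pass (adjusted p = 0.0719 in edgeR's test). It passed as a fall without western diet replicate 3 (log2 −0.26, adjusted p = 0.0122) or replicate 1 (−0.24, adjusted p = 0.0332). Western diet livers ranged more widely, with an SD of 23.1 CPM around a mean of 125 CPM, against 8.33 around 144 CPM on chow. ATF4 is regulated largely at translation, and protein was not measured in these data.

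Atf5, a related factor whose message is also translated under stress and which is abundant in liver, had 436, 574 and 789 CPM on western diet and 567, 716 and 782 CPM on chow. The groups overlapped, with a log2 difference of −0.18 (95% interval −0.42 to 0.046, adjusted p = 0.177).

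**Figure D2:**
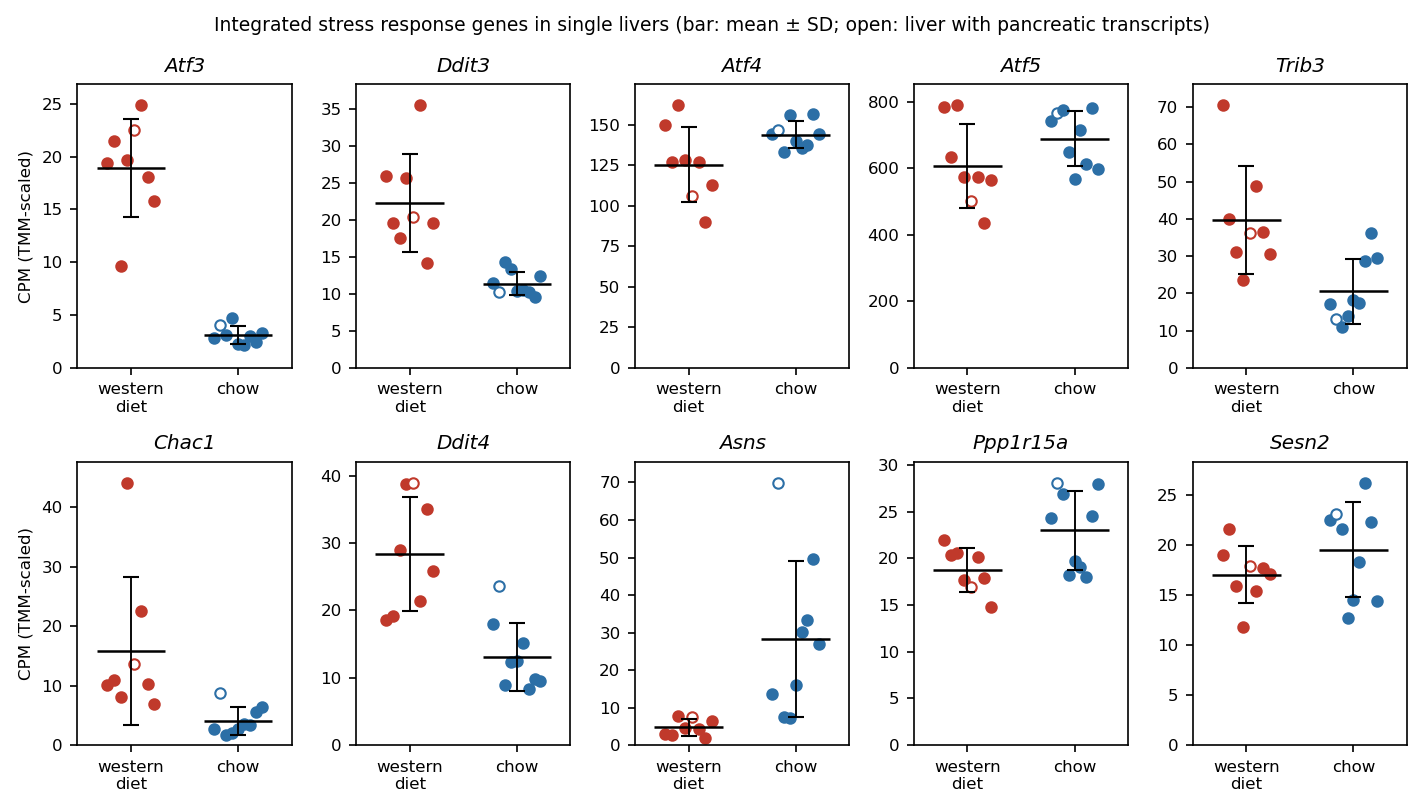
CPM of each of the 10 genes (y axis, from 0) in each liver, western diet left of chow; bars give mean ± SD of 8 and 9 livers, and open circles mark the 2 livers with pancreatic transcripts. All western diet livers lie above all chow livers in Atf3, whereas in Asns the 8 western diet livers sit between 1.78 and 7.62 CPM and the chow livers spread from 7.27 to 69.9 CPM.

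The feedback genes moved in opposite directions. Trib3, a pseudokinase that is induced by ATF4 and CHOP and binds both ATF4 and the insulin-signalling kinase Akt, had 23.7, 36.3 and 70.4 CPM on western diet and 10.997, 17.3 and 36.2 CPM on chow. Replicate 1 was the highest of the western diet livers, 4 of the 8 lay above every chow liver, and chow replicates 7, 8 and 9 reached into the western diet range. The rise was 1.90-fold (39.6 ± 14.5 and 20.6 ± 8.72 CPM, log2 0.93 ± 0.24, adjusted p = 0.00426), and it did not pass a test against a 1.5-fold change (adjusted p = 0.198).

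Ppp1r15a encodes GADD34, the subunit that directs a phosphatase to eIF2 and so ends the response. It had 14.8, 18.96 and 21.97 CPM on western diet and 18.0, 24.3 and 28.1 CPM on chow. Chow livers split into 5 above every western diet liver and 4 within their range. The fall was 1.23-fold (18.8 ± 2.35 and 23.0 ± 4.24 CPM, log2 −0.30 ± 0.11, adjusted p = 0.0299) and was a narrow call. It was lost without the 2 livers with pancreatic transcripts (−0.24, adjusted p = 0.101), with library size alone (−0.17, adjusted p = 0.184), and in 7 of the 17 fits that left out 1 liver, those without western diet replicates 5, 7 and 8 and chow replicates 1, 2, 3 and 9 (adjusted p up to 0.0678).

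Of the effectors, Chac1 rose most. This enzyme, which breaks down glutathione, had 6.99, 10.6 and 44.2 CPM on western diet and 1.74, 3.41 and 8.79 CPM on chow. In 6 of the 8 western diet livers it lay above every chow liver, replicate 4 stood far above the other 7, and the highest chow liver was replicate 2, with pancreatic transcripts. The means of 15.8 ± 12.4 CPM on western diet and 4.09 ± 2.35 CPM on chow gave a 3.85-fold rise (log2 1.94 ± 0.40, adjusted p = 0.000616). Its log2 difference was 1.54 without western diet replicate 4 and 2.195 without the 2 livers with pancreatic transcripts. The chow level of Chac1 rests on 9 to 56.5 counts a library.

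Ddit4 encodes REDD1, which restrains the growth kinase mTORC1 and is also raised by glucocorticoids and low oxygen. It had 18.6, 27.4 and 38.97 CPM on western diet and 8.36, 12.4 and 23.6 CPM on chow. Of the chow livers 8 lay under every western diet liver, and the exception was replicate 2, again the liver with most pancreatic transcripts. The rise was 2.17-fold (28.3 ± 8.48 and 13.1 ± 5.03 CPM, log2 1.12 ± 0.21, adjusted p = 0.000305) and 2.28-fold without those 2 livers.

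Sesn2, a sestrin that restrains mTORC1 when leucine is short, had 11.8, 17.4 and 21.7 CPM on western diet and 12.7, 21.6 and 26.3 CPM on chow. It did not pass (log2 −0.20, 95% interval −0.49 to 0.096, adjusted p = 0.258).

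Asparagine synthetase, Asns, which makes asparagine from aspartate and glutamine and is a classic ATF4 target, was lower on western diet. It had 1.78, 4.39 and 7.62 CPM on western diet and 7.27, 27.0 and 69.9 CPM on chow. The groups touched at their edges: 7 of 9 chow livers lay above every western diet liver, and chow replicates 3 and 4, at 7.52 and 7.27 CPM, lay beside western diet replicates 3 and 5, at 7.62 and 7.54 CPM. Means of 4.68 ± 2.26 CPM on western diet and 28.3 ± 20.8 CPM on chow gave a log2 difference of −2.57 ± 0.47, 5.94-fold lower (adjusted p = 0.000292), rank 13189 of 13204 from the top. The highest chow liver was replicate 2, with pancreatic transcripts, and without it and western diet replicate 5 the gene was 5.37-fold lower (adjusted p = 0.000478). Between 10 and 65.5 counts a library stand behind the western diet level.

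On the mouse assembly GRCm38.p6, also called mm10, RefSeq annotates all 10 as protein-coding, and the spans of whole genes, exons and introns together, are as follows. Atf3 lies on chromosome 1, 191170296 to 191183333. Chac1 and Trib3 lie on chromosome 2, 119351242 to 119354326 and 152337425 to 152344060. Sesn2 lies on chromosome 4, 132492804 to 132510456, and Asns on chromosome 6, 7675165 to 7693209. Atf5 and Ppp1r15a lie on chromosome 7, 44812256 to 44816658 and 45522917 to 45526268. Ddit4 and Ddit3 lie on chromosome 10, 59949675 to 59951770 and 127290793 to 127296291, and Atf4 on chromosome 15, 80255184 to 80257545.

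Among livers of a diet the 10 genes did not vary as a unit. Over the 45 pairs the median Pearson r of log2 CPM was 0.082 across the 8 western diet livers and 0.15 across the 9 chow livers, with 25 positive pairs on western diet and 32 on chow. With exact two-sided permutation p-values adjusted over all 90 pairs, 1 pair passed in each diet by Pearson's r. By Spearman's rho none passed, and 3 western diet and 2 chow pairs had an unadjusted p under 0.05. Some of the 10 ran together on chow once replicate 2 was left out, without passing. Trib3 then had r = 0.90 with Chac1 and 0.89 with Asns, against 0.45 and 0.51 across all 9 chow livers.

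On western diet the pair was Atf4 and Atf5 (r = 0.97, exact permutation p = 0.000149, adjusted p = 0.0134, rho = 0.93, adjusted p = 0.182 for rho, n = 8). Leaving out the 2 livers farthest from the median of Atf4 gave r = 0.92. Western diet replicates 1 and 3 were the highest in both genes and replicate 7 the lowest. On chow the r of this pair was 0.13, and the difference between the diets was not tested. Relations of these genes with other quantities on western diet did not pass. The library total had r = −0.86 with Atf4 and −0.87 with Atf5 (exact permutation, adjusted p = 0.2798 for both). The sum of the hepatocyte markers, a measure chosen after the values were seen, had r = 0.85 with Atf4 and 0.91 with Atf5 (exact permutation, adjusted p = 0.152 and 0.0873 over 60 relations). Hepatocyte markers summed to 21093 and 20635 CPM in western diet replicates 1 and 3 and to 13035 to 15750 CPM in the other 6, and their part in the pair was not tested.

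On chow the pair was Asns and Chac1 (r = 0.904, exact permutation p = 0.00107, adjusted p = 0.0484, rho = 0.85, adjusted p = 0.182 for rho, n = 9). Without the 2 livers farthest from the median of Chac1 the r was 0.96. Chow replicate 2 was the highest in both genes and chow replicates 3 and 4 the lowest in both, with 9 and 11 counts of Chac1. On western diet the r was −0.02, with Chac1 highest in a liver of middling Asns, and the difference between the diets was not tested. Neither pair passed without the livers with pancreatic transcripts, which left 7 and 8 livers (Atf4 and Atf5 r = 0.96, adjusted p = 0.107; Asns and Chac1 r = 0.86, adjusted p = 0.176, exact permutation). In chow Asns ran against Ddit3 without passing (r = −0.81, rho = −0.85, exact permutation p = 0.0094, adjusted p = 0.282), and r was −0.49 without the 2 livers farthest in Ddit3. On western diet Ddit4 ran against Trib3, also without passing (r = −0.72, rho = −0.69, exact permutation p = 0.0363, adjusted p = 0.8003).

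**Figure D3:**
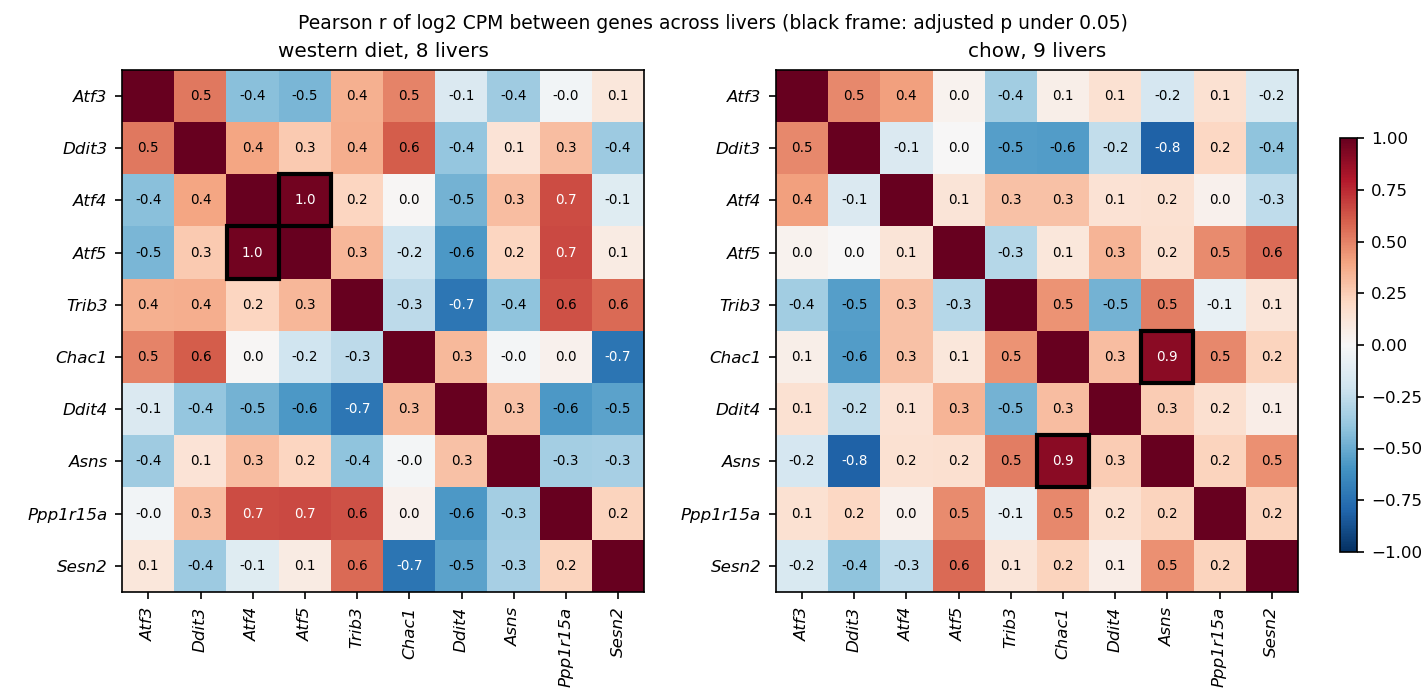
Pearson r of log2 CPM for each pair of the 10 genes across 8 western diet livers (left) and 9 chow livers (right); colour runs from −1 to 1 and black frames mark an adjusted p under 0.05. Most squares are pale, with Atf4 and Atf5 framed at 0.97 on western diet and Asns and Chac1 framed at 0.904 on chow.

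**Figure D4:**
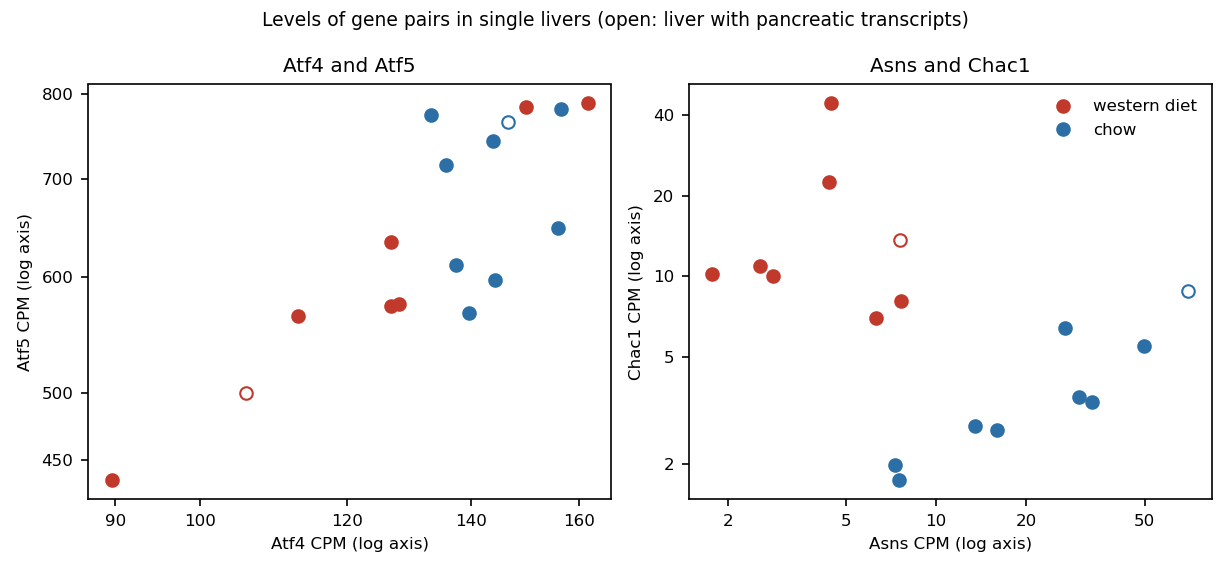
Atf4 and Atf5 CPM (left) and Asns and Chac1 CPM (right) in single livers, on log axes, with western diet in red, chow in blue and livers with pancreatic transcripts as open circles. Western diet livers form a line in the left panel, and chow livers in the right panel run from 7.27 CPM of Asns to 69.9 CPM, while western diet livers stay at or under 7.62 CPM.

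Each of the 10 was also set against 6 measures within each diet, 120 relations in all, and none passed by exact permutation with either coefficient; 5 western diet and 5 chow relations had an unadjusted p under 0.05 by Pearson's r, and 8 and 5 by Spearman's rho. The clock gene Dbp had r = 0.77 and rho = 0.92 with Trib3 on chow (exact permutation p = 0.0187 and 0.00131, adjusted p = 0.2798 and 0.157, n = 9), with r = 0.597 without the 2 livers farthest in Dbp. The score of 15 immediate early genes had r = 0.75 with Atf3 on western diet (exact permutation p = 0.0279, adjusted p = 0.335, n = 8) and 0.31 on chow. On chow the score had r = 0.77 with Ppp1r15a and 0.74 with Chac1, also without passing (exact permutation p = 0.0187 and 0.0237, adjusted p = 0.2798 and 0.316, n = 9). Across all western diet livers r was −0.05 and 0.58 for these 2 genes. Without the 2 livers farthest in the score, r was 0.58 with Ppp1r15a and 0.24 with Chac1 on chow. It was 0.66 with Atf3 on western diet. The hormone gene Fgf21 had r = 0.81 with Atf4 and 0.797 with Atf5 on western diet, and 0.81 with Atf5 on chow (exact permutation, adjusted p = 0.2798 for each). Pancreatic transcripts had r = 0.75 with Ddit4 on chow, which turned to −0.32 without the 2 livers farthest from the median (exact permutation, adjusted p = 0.2798).

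The genes most like each of the 10 over the 17 livers, after the mean of each diet was taken away, are given as a description, from 13011 genes searched. Over the 15 livers without pancreatic transcripts the r of these genes ran from 0.67 to 0.89. Nearest to Chac1 were Sec61a1 (r = 0.89), the channel through which proteins enter the endoplasmic reticulum, Tram1 (r = 0.88), which sits beside that channel, and Xbp1 (r = 0.88), a factor of the unfolded protein response. Nearest to Atf4 were the hepatocyte genes Hpd, an enzyme of tyrosine breakdown, Serpina1d, a secreted protease inhibitor, and Agt, which encodes angiotensinogen, each at r = 0.88, with 0.95 on western diet for each and 0.34 to 0.48 on chow. Atf5 was closest to Eif2s2, which encodes the beta subunit of eIF2 (r = 0.87), Tmem243 and Cops6. Trib3 was closest to Phlda1 (r = 0.88) and Bbc3, which encodes the cell death protein PUMA (r = 0.86), then Ikzf4. Ppp1r15a lay nearest to the AP-1 factor Jund (r = 0.88), then Ube2m and Atp6v0b, and Ddit4 to Lzic (r = 0.86), then Tbc1d1 and Pes1. Asns lay nearest to Sowahc (r = 0.88), then Plekha4 and Zfp13, and Atf3 to Card10 (r = 0.85), then Chrnb1 and Llgl1. The nearest genes were at lower r for Ddit3 (Dph2 at 0.69, then Rab24 and Gsdme) and for Sesn2 (Ehd2 at 0.74, then Prss53 and 4833420G17Rik).

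Upstream of ATF4, the genes of eIF2 and its kinases differed by −0.37 to 0.62 in log2. Of 19 tested genes of this list 2 rose, 7 fell and 10 did not pass, with a median log2 difference of −0.097. The shares were 10.5% for rises and 36.8% for falls, against 24.8% and 23.6% of all genes. The kinase PERK (Eif2ak3), which senses unfolded protein in the endoplasmic reticulum, rose 1.54-fold (43.8 ± 10.1 CPM on western diet and 28.7 ± 7.07 CPM on chow, adjusted p = 0.00178). Impact, an inhibitor of the amino acid sensor GCN2, rose by 0.32 in log2. GCN2 itself (Eif2ak4) did not pass (log2 0.062, adjusted p = 0.542). Among those that fell were the constitutive eIF2 phosphatase subunit Ppp1r15b (−0.35, adjusted p = 0.00212), the kinase inhibitor Dnajc3 (−0.37) and the eIF2B subunit Eif2b1 (−0.33). With library size alone 4 rose and 4 fell.

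Other targets of ATF4 and CHOP rose in part. Of 22 tested 9 rose (40.9%, against 24.8% of all genes), none fell and 13 did not pass in edgeR's test, with a median of 0.28. In this list and in those below where a direction held no gene, that count was also 0 at an unadjusted p under 0.05 and with DESeq2. Gdf15, a stress hormone that acts on the hindbrain, had 60.9, 78.7 and 198 CPM on western diet and 7.51, 13.8 and 30.8 CPM on chow, all western diet livers above all chow livers (5.54-fold, adjusted p = 1.57e-05). This separation held for 1 of the 22 and for 6.98% of all tested genes. The death receptor Tnfrsf10b rose by 1.72 in log2, the ubiquitin ligase gene Rnf122 by 1.39 and the factor Cebpb by 0.44 (adjusted p = 0.0452), a call lost in 10 of the 17 fits without 1 liver. Fgf21, a hormone that liver secretes in fasting and amino acid shortage, had 14.0, 17.8 and 32.5 CPM on western diet and 8.54, 20.1 and 45.98 CPM on chow and did not pass (log2 −0.25, adjusted p = 0.547). Nupr1, a chromatin-associated stress gene, lay at 8.84 to 45.5 CPM on western diet and at 4.01 to 11.4 CPM on chow apart from chow replicate 2, at 269 CPM. It did not pass (log2 −0.86, adjusted p = 0.466), and without the 2 livers with pancreatic transcripts it rose, with a log2 difference of 1.31 (adjusted p = 0.00024).

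Genes of amino acid supply moved in both directions, as did all genes, of which 24.8% rose and 23.6% fell. Of 11 tested amino acid transporters 5 rose (45.5%) and 2 fell (18.2%), with a median of 0.24. Slc1a4, a carrier of small neutral amino acids, had 17.7, 24.8 and 54.1 CPM on western diet and 4.93, 6.55 and 7.94 CPM on chow, without overlap (4.41-fold, adjusted p = 5.67e-08). The glutamine carrier Slc38a1 and Slc7a7 also rose without overlap (2.26-fold and 2.19-fold), while Slc38a2 and the glycine carrier Slc6a9 fell (−0.61 and −0.56 in log2). All western diet livers lay above all chow livers in 3 of the 11 transporters and in 6.98% of all tested genes. Slc7a11, the cystine carrier, was too low to test, at 4 to 21 counts a library in western diet livers and 0 to 23 in chow livers. Of 18 tRNA synthetases 1 rose (Gars, 0.24) and 4 fell (Mars, Tars and Aars at −0.26, −0.26 and −0.23 among them), with a median of −0.015. The share of rises was 5.6%, and that of falls, 22.2%, lay near the share among all genes. With library size alone the balance of the synthetases changed to 6 rises and 0 falls in edgeR's test (median 0.11). It changed to 4 rises and 2 falls without the 2 livers with pancreatic transcripts, where Aars (adjusted p = 0.0594) and Tars (0.116) no longer passed.

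In serine, folate and proline synthesis 2 of 13 tested genes rose and 1 fell, with a median of −0.023. The shares were 15.4% and 7.7%, against 24.8% and 23.6% of all genes. Mthfd2, a folate enzyme of mitochondria and an ATF4 target, had 5.97, 9.104 and 14.9 CPM on western diet and 0.813, 1.65 and 13.2 CPM on chow, the last in chow replicate 2 (3.13-fold, adjusted p = 0.00356, and 5.35-fold without the 2 livers with pancreatic transcripts). Mthfd1l rose by 0.43, a call lost in 9 of the 17 fits without 1 liver and without the 2 livers with pancreatic transcripts, and Shmt1 fell by 0.501. The serine synthesis genes Psat1 and Phgdh did not pass (log2 0.73 and −0.62). Both were highest in chow replicate 2, and without the 2 livers Psat1 rose by 1.42 in log2 (adjusted p = 8.68e-05) while Phgdh was at −0.15 (adjusted p = 0.681).

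A list of endoplasmic reticulum chaperones and other genes of the parallel ATF6 and XBP1 branches in the unfolded protein response held no rise. Of 21 tested 0 rose and 2 fell (9.5%) in edgeR's test, Sel1l and Ern1 (−0.48 and −0.34 in log2), with a median of −0.033. Among all genes 24.8% rose and 23.6% fell. With library size alone 2 genes of the list rose and 1 fell. The main chaperone BiP (Hspa5) was at 813 ± 110.2 CPM on western diet and 798 ± 151 CPM on chow (adjusted p = 0.856). Of 10 mitochondrial chaperones and proteases 7 fell (70.0%, against 23.6% of all genes) and none rose in edgeR's test, by small steps (median −0.20). Dnaja3, Afg3l2 and Clpp were at −0.42, −0.27 and −0.26. With library size alone 2 of these 10 fell.

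Other lists whose genes share inducers with some of the 10 were counted in the same fit, and their part in the results above was not tested. Of 15 immediate early genes 8 rose (53.3%, against 24.8% of all genes) and none fell in edgeR's test (median 1.082). Egr2, Fosb and Btg2 were highest at 2.41, 2.27 and 2.15 in log2, and Fos was at 1.49 without passing (adjusted p = 0.0697). In the fits without 1 liver 6 to 10 genes of the list rose. Without western diet replicate 6 it was 6 of 14 tested, with a median of 0.65. Fosb was abundant enough to be tested in only 8 of the 17 fits without 1 liver, and passed in those 8. Without the 2 livers with pancreatic transcripts 14 genes of the list were tested, with no value for Fosb. Fos passed without the 2 livers with pancreatic transcripts (1.95, adjusted p = 0.0295), and its difference was 0.84 without western diet replicate 6 (adjusted p = 0.2497). Of 12 p53 targets 8 rose (66.7%, against 24.8% of all genes) and none fell (median 0.43), led by Eda2r, Phlda3 and Zmat3 (1.84, 0.94 and 0.61). Of 16 clock genes 4 fell and none rose (median −0.37), a share of falls of 25.0% where 23.6% of all genes fell. Without the 2 livers with pancreatic transcripts 5 fell and 1 rose. Over all 17 livers Tef, Cry2 and Hlf were at −0.76, −0.67 and −0.63. Dbp, with 55.0 ± 28.3 CPM on western diet and 84.4 ± 69.4 CPM on chow, did not pass (adjusted p = 0.427). Of 14 genes of glucocorticoid action and fasting 2 rose (Cdkn1c and Sgk1, 0.75 and 0.59) and 6 fell, with Cyp4a14, Fkbp5 and Irs2 at −1.44, −0.95 and −0.797 (median −0.29). The shares were 14.3% and 42.9%, against 24.8% and 23.6% of all genes. Without the 2 livers with pancreatic transcripts 1 rose and 6 fell, since Sgk1 no longer passed (0.57, adjusted p = 0.0614).

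**Figure D5:**
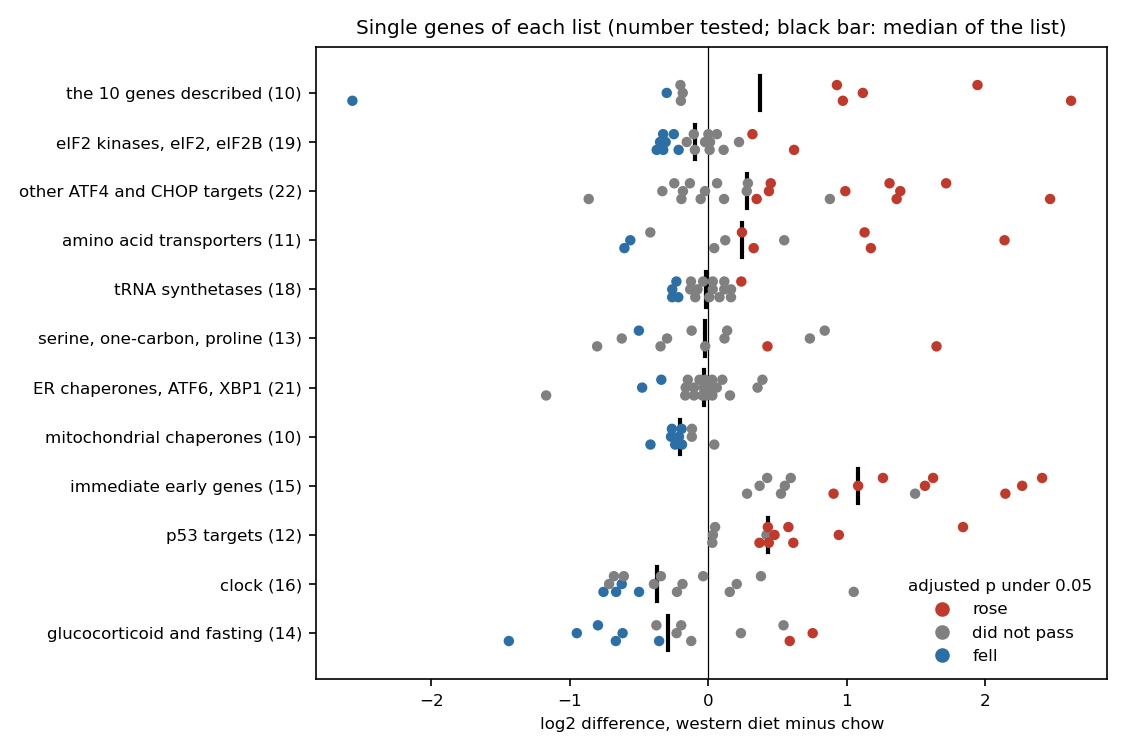
Log2 difference (western diet minus chow, x axis) of every tested gene in the 10 genes described and in 11 other lists, with the number tested in brackets, the list median as a black bar and the call by colour. Other ATF4 and CHOP targets, immediate early genes and p53 targets hold rises and no falls. ER chaperones and other genes of the ATF6 and XBP1 branches cluster near 0, and the 10 genes spread from −2.57 to 2.62.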

How the data were processed

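Bulk RNA sequencing measured whole-liver RNA of 17 mice, grouped by the treatment label (western diet 8, chow 9); the source label names western diet for all 17 and was not used. Per the labels' protocols, RNA came from pulverised frozen liver, libraries were made with a NEBNext Ultra kit and were sequenced paired-end on a NovaSeq instrument. The authors deposited estimated counts per gene symbol in steps of 0.5; the submitters' processing notes name STAR 2.4.1c, HOMER, FastQC, MultiQC and mm10, while for strand, multimapped reads, program options and annotation release the entry is: not given in the sources used here. Reads of near copies or overlapping genes may therefore be shared.

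Of 24940 genes 3 had no value. Expected counts were rounded and fitted with edgeR 4.0.16 in R 4.3.3 (quasi-likelihood test with robust estimation, TMM factors, filterByExpr, diet alone, two-sided), with Benjamini-Hochberg adjustment over 13204 genes and a threshold of 0.05. The common dispersion was 0.036. The standard error of a log2 difference was its size over the square root of F. Totals of 3604212 to 9071908.5 counts limit precision, and floors cover counting error only. Relations used log2 CPM (prior count 2) within each diet, with exact two-sided permutation p-values over 40320 or 362880 orders. Alternatives used other scalings, filters and thresholds, DESeq2 1.42.0, limma 3.58.1, left-out libraries, and clock and immediate early covariates. These covariates were centred within each diet and so carried no mean difference between the diets, though fitted differences of single genes could move with them. Figures and relations used Python 3.11.15.

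The 10 genes and the 11 other lists were chosen with earlier results of these data known. Named are all 10 genes, of each other list the called genes with the largest differences (up to 3 higher and 3 lower), 14 genes named whatever their result, and the 3 genes most like each of the 10. Gene positions are from RefSeq on GRCm38.p6, which held 24294 of the 24937 symbols. Sequences were not used here.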

Additional observations from a re-analysis of the deposited data

Results flagged for a closer look

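In 11 of 46 groups of 1 gene in 1 diet (23 genes), the highest liver lay farther from its neighbour than Dixon's 95% critical value allows; chance flags about 1 in 20 groups. In western diet livers Chac1 stood at 44.16 CPM in replicate 4, where the next liver had 22.52 CPM, and Hspa5 was also highest in replicate 4, at 1056 CPM with 866.7 CPM next. Western diet replicate 6 was the highest in Gdf15 (198.3 CPM, next 117.1 CPM) and in Fos (104 CPM, next 29.3 CPM). Ppp1r15b stood at 248.8 CPM in western diet replicate 3, with 187.2 CPM next.

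The other 6 flags fell on the 2 livers with pancreatic transcripts. Western diet replicate 5 was the highest of its diet in Phgdh (9.268 CPM, next 4.369 CPM) and Nupr1 (45.54 CPM, next 24.17 CPM). Chow replicate 2 was the highest of its diet in Eif2ak3 (46.37 CPM, next 32.37 CPM), Psat1 (19.53 CPM, next 6.005 CPM), Phgdh (25.52 CPM, next 4.885 CPM) and Nupr1 (269 CPM, next 11.4 CPM).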

How the results depend on the processing

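Over 14 alternatives other than leaving out 1 liver, 8 of the 10 genes kept their direction and their side of the threshold; Trib3 lost its call against a 1.5-fold change and Ppp1r15a in 4 alternatives. The 2 covariates among the 14 were centred within each diet, so neither carried a mean difference between the diets. The part of such a mean difference in the results was therefore not tested. Fitted differences of single genes could still move, as that of Nupr1 did (given below). With the clock covariate 2 clock genes rose and 6 fell, against 0 and 4 without it. That covariate was built from the same 16 clock genes and takes up part of their spread within each diet. No conclusion is drawn from this change in calls. The genes most like each of the 10 were correlated again without the livers with pancreatic transcripts, an alternative chosen after seeing the data. So 1 of the 10 fell, in place of 2, with library size alone, with an adjusted p under 0.01, against a 1.5-fold change and without the 2 livers with pancreatic transcripts; the cause was not tested. Library size alone left 1615 falls among all genes, and the test against 1.5-fold left 1108 rises and 195 falls. Without the livers with pancreatic transcripts 0 pairs of the 10 passed on western diet and 0 on chow by exact permutation, in place of 1 and 1, over fewer livers. Leaving out each liver gave 5 rises and 1 to 3 falls among the 10, and 3066 to 3361 rises and 2816 to 3253 falls among all genes. Nupr1 (−0.86 in log2) turned to 1.501 with DESeq2, 0.8868 with limma-voom, 1.305 without the livers with pancreatic transcripts, 0.5633 with the clock covariate and 0.599 with the immediate early covariate, and ran from −1.194 to 1.634 without 1 liver, the highest without chow replicate 2. Phgdh (−0.62) turned to 0.2725 with DESeq2 and ran from −1.069 to 0.301, the highest again without chow replicate 2, and Hspa5 ran from −0.03575 to 0.07195. Without 1 liver Tars lost its call in 8 of 17 fits and Sgk1 in 7, Tef lost it without chow replicate 9, and Fos passed without chow replicate 1 or 2. No paired analysis was possible because replicate numbers follow accession order and tie no western diet mouse to a chow mouse. Depth limits Asns on western diet, and Atf3 and Chac1 on chow.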

Other observations

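After the values were seen, the summed markers of hepatocytes, macrophages, and stellate cells and fibroblasts were set against the 10 genes within each diet, 60 relations in all. With exact permutation none passed adjustment by Pearson's r or Spearman's rho, and 7 had an unadjusted Pearson p under 0.05. Across western diet livers macrophage markers had r = 0.81 with Asns (rho = 0.90, exact permutation p = 0.0184, adjusted p = 0.276, n = 8), and r was 0.900 without the 2 livers farthest from the median. Across chow livers markers of stellate cells and fibroblasts had r = 0.86 with Atf5 (rho = 0.82, exact permutation p = 0.00291, adjusted p = 0.0873, n = 9), and 0.78 without the 2 farthest.

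Without chow replicate 2, across the other 8 chow livers, r was 0.90 for Trib3 and Chac1 and 0.89 for Trib3 and Asns (rho = 0.86 for both, exact permutation, adjusted p = 0.112 for both). Col1a1, the collagen gene used as a measure of scarring, rose by 1.76 in log2 on western diet, and its relations with the 10 genes did not pass in either diet (exact permutation).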
